A study of Mus musculus with 4 samples.

Results

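The miR-34 and miR-449 microRNAs were measured in mouse embryonic stem cells (ESCs) with and without DNA methyltransferases. The members were chosen by name only, as every probe for miR-34a, miR-34b, miR-34c, miR-449a, miR-449b or miR-449c, with or without an arm suffix. This gave 7 of the 566 mouse probes on the panel, with 4 for miR-34 and 3 for miR-449. WT cells were the R1 mouse ESC line, with 2 replicates. TKO cells were R1 cells without the 3 DNA methyltransferase genes Dnmt1, Dnmt3a and Dnmt3b, also with 2 replicates. They are an established knockout line obtained from an earlier study, so that line and genotype cannot be told apart. All 4 cultures were grown on gelatin in serum with 1000 U/ml leukemia inhibitory factor (LIF), a factor that keeps ESCs undifferentiated, and the labels also state that all were differentiated for 4 days before RNA isolation. The replicates are called biological in the series' design text.

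MicroRNAs (miRNAs) are short RNAs that lower the output of mRNAs paired to their seed, the bases 2 to 8 from the 5′ end. Mir34a and the Mir34b/Mir34c pair are direct transcriptional targets of p53, the tumor suppressor that is activated by DNA damage, and miR-34 restrains cell cycle and survival genes. The miR-449 miRNAs carry the same seed from another locus, are known for their part in the making of motile cilia, and share high expression in testis with miR-34b and miR-34c.

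The sequences below are shown because the shared seed is what defines the family. RefSeq on GRCm38.p6 gave a mature sequence for 5 of the 7 members, taking a probe name without a suffix as the 5p arm, which carried that name in earlier nomenclature. Sequences run 5′ to 3′ with the seed in capitals.
miR-34a-5p: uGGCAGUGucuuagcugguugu
miR-34b-5p: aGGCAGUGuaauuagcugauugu
miR-449a-5p: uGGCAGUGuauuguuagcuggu
miR-449c-5p: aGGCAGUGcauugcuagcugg
miR-34b-3p: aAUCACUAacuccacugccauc
The other members are miR-34c and miR-449b. In this table of 1679 mature mouse miRNAs, GGCAGUG was the seed of 4 names (0.238%), which were the 5p arms printed here, and no name in the table from outside the family had it. The 3p arm of miR-34b has a different seed, AUCACUA, shared in the table with miR-34c-3p. Outside the seed the family diverged. Counted from the 5′ end without gaps, miR-34a-5p matched miR-449a-5p at 15 of 22 positions and miR-34b-5p at 11 of 22. Among the 5 sequences printed, the closest pair was miR-449a-5p and miR-449c-5p, with 18 of 21 positions identical. Cross-reaction between these probes was not tested.

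The 2 arms of miR-34b are cut from 1 hairpin, printed here because both were measured, with the mature arms in capitals.
Mir34b: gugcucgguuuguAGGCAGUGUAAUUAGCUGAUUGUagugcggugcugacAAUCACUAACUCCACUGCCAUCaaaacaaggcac
In GRCm38.p6 this hairpin lies at chr9:51103562-51103645 on the minus strand. Mir34c lies 451 bases away at chr9:51103034-51103110 on the same strand, and both fall within the annotated spans of the protein-coding genes Btg4 and Hoatz. Mir34a lies on the plus strand at chr4:150068454-150068555, in the span of no other gene. The miR-449 hairpins lie in order within Cdc20b on chromosome 13, with Mir449c at chr13:113035983-113036091, Mir449b at chr13:113037419-113037498 and Mir449a at chr13:113037534-113037624. Only gene spans were compared, so exons, introns and the strand of the other gene were not told apart. CpG is the dinucleotide that the missing enzymes methylate. The Mir34b and Mir449a hairpins hold 2 CpG each, and those of Mir34a, Mir34c and Mir449c hold 0. The median over the 1005 mouse hairpins of the table was 1, and 33.5% of them hold no CpG. The 300-base window around the start of Cdc20b holds 23 CpG, against a median of 7 over all promoter windows. Of all windows, 21.5% hold at least as many. Windows for the miR-34 loci were not counted.

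Levels come from the NanoString nCounter, an assay in which each miRNA species is tagged and counted by its own color code. They are given as the authors' normalized counts, turned back from the deposited log2 values. Recovered counts summed to between 511661 and 613666 per sample. The 33 probes for viral miRNAs served as an estimate of background, set at their mean plus 2 SD, which was 69.2 normalized counts. The 11 miR-290 to miR-295 probes are the marker list for ESCs. They summed to between 332117 and 338120 normalized counts in WT samples and between 271498 and 295039 in TKO samples. In limma, 0 of them were called. The levels of different probes also depend on how well each probe works, so members are compared between samples and not ranked by level. In bulk RNA, fewer cells that express a miRNA and less of it per cell cannot be told apart.

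Of the 7 members, only mmu-miR-34c and mmu-miR-34a averaged more than the background. In the order WT replicates 1 and 2, then TKO replicates 1 and 2, miR-34c gave 419.5, 629, 840.05 and 747 normalized counts. Every sample was far above background, and both TKO values lay above both WT values. For the WT replicates, the 95% intervals of counting error, which leave out the spread between cultures, were 379 to 463 and 582 to 679.8 normalized counts. In the same order, miR-34a gave 117, 102, 83.0 and 54.7 normalized counts. Both TKO values lay below both WT values, and TKO replicate 2 did not reach the background of its own sample, 71.0. The TKO mean of miR-34a, 68.8, was just under the background of 69.2, so this probe passed the background through its WT values.

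The other 5 members were below background in each of the 4 samples. In the same order of samples, mmu-miR-34b-5p gave 47.1, 21.4, 31.6 and 31.1 normalized counts, so that the TKO values fell between the WT values. mmu-miR-34b-3p gave 26.8, 12.6, 34.6 and 27.9. Its groups did not overlap, but the nearest values, 26.8 in WT and 27.9 in TKO, differ by less than counting error. mmu-miR-449a gave 19.3, 13.6, 10.9 and 6.43 normalized counts. These rest on 18, 14, 11 and 6 recovered counts, and the TKO values were the lower ones. mmu-miR-449b lay between 5.93 and 12.9 normalized counts and mmu-miR-449c between 7.77 and 10.7 over the 4 samples, with overlapping groups for both. Levels below background do not show that these miRNAs were absent or unchanged.

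**Figure D1:**
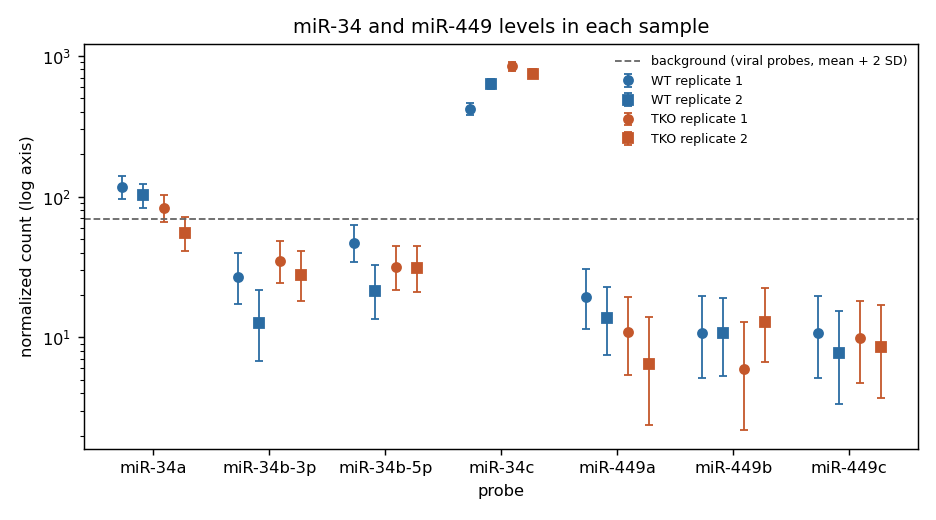
Normalized counts (log axis) of the 7 miR-34 and miR-449 probes in each of the 2 WT and 2 TKO samples. Error bars are exact Poisson 95% intervals of the recovered counts, which cover counting error only, and the dashed line is the background of 69.2 normalized counts. miR-34c is above the line in all 4 samples, miR-34a in 3 of them, and the other probes in none.

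The comparison of TKO with WT cells asked whether the levels of mature miRNAs depend on DNA methylation. No member of the family rose or fell past the threshold. Normalized counts of miR-34a averaged 109 ± 10.4 for WT and 68.8 ± 20.05 for TKO (SD, n = 2). Those of miR-34c averaged 524 ± 148 for WT and 794 ± 65.7 for TKO (SD, n = 2). limma with Benjamini-Hochberg adjustment over all 566 mouse probes called 0 of the 7 members at an adjusted p of 0.05. Over all mouse probes it called 24 lower (4.24%) and 24 higher (4.24%) in TKO cells, or 8.48% together, so that few calls among 7 probes would come at the background share. This share moved with the fit. The calls were 48 lower and 26 higher among the 238 probes above background, 55 lower and 30 higher with voom, and 0 without TKO replicate 1 or TKO replicate 2 (at an unadjusted p under 0.05, 75 lower and 39 higher, and 64 lower and 37 higher). After scaling each sample to its total (sum scaling), the calls over all probes were 17 lower and 27 higher, and again no member was among them. Every difference is the TKO mean less the WT mean of log2(normalized count + 1), a scale that shrinks changes at low counts.

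The log2 difference of miR-34a was -0.69 (SE 0.25, 95% interval -1.36 to -0.011, adjusted p = 0.209 from limma). That of miR-34c was 0.62 (SE 0.25, 95% interval -0.041 to 1.29, adjusted p = 0.227 from limma). The signs of these 2 members, the ones above background on the mean of all 4 samples, were opposite. miR-449a, below background, had the lowest value of the family, -0.87 (SE 0.31, 95% interval -1.70 to -0.042, adjusted p = 0.200 from limma). miR-34b-3p was at 0.72 (SE 0.39, adjusted p = 0.341 from limma), with an interval that reaches from -0.31 to 1.75. The differences of miR-34b-5p, miR-449b and miR-449c were -0.019, -0.25 and 0.011, with 95% intervals of -1.08 to 1.04, -1.23 to 0.72 and -0.55 to 0.57.

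Single samples moved these values. The difference of miR-34a was -0.39 without TKO replicate 2 and -0.98 without TKO replicate 1. For miR-34c, leaving out WT replicate 1 gave 0.33 and leaving out WT replicate 2 gave 0.92. miR-34a lies close to background. Subtracting the mean of the viral probes, an alternative chosen after seeing the data, moved its difference to -1.13, and it was still not called. The median difference of all mouse probes was -0.12, and it moved to 0.0089 with sum scaling. Relative to the median of all probes, a measure that scaling whole samples hardly moves by its construction, miR-34a stood at -0.56 and miR-34c at 0.75 on the log2 scale.

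**Figure D2:**
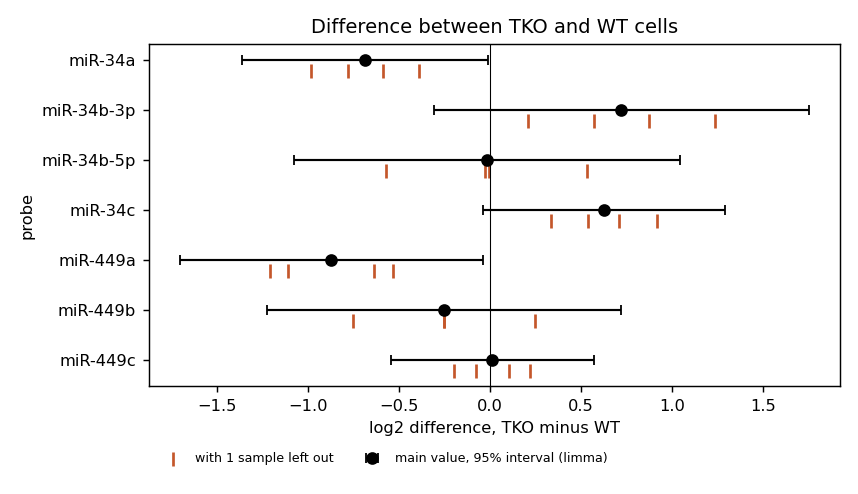
Log2 difference of TKO minus WT cells for each member (points), with the 95% interval from limma (bars), and the values with 1 sample left out (short vertical marks). miR-34a (-0.69) and miR-449a (-0.87) lie to the left of 0 and miR-34c (0.62) and miR-34b-3p (0.72) to the right, and none passed the adjusted threshold.

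In 2 members, miR-34a and miR-449a, both TKO values were below both WT values, and in miR-34c and miR-34b-3p they were above. Over all mouse probes, 36% had both TKO values below and 17.3% both above, 53.4% together, so 4 of 7 members without overlap is close to the background. In 3 members the groups overlapped. The median difference of the members was -0.019, beside -0.12 for all mouse probes.

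**Figure D3:**
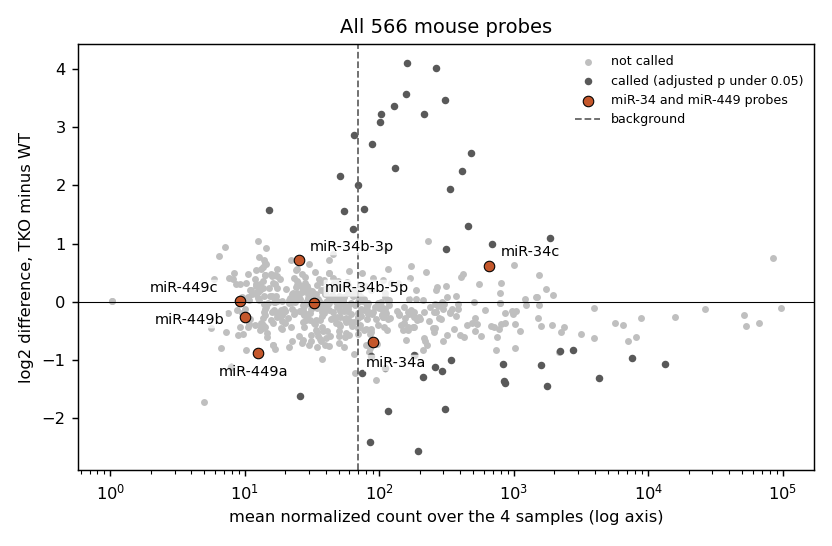
Log2 difference of TKO minus WT cells against the mean normalized count over the 4 samples (log axis) for all 566 mouse probes, with the called probes in dark grey and the 7 members in orange. The members lie among the probes that were not called, and 5 of them lie left of the background line at 69.2 normalized counts.

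The ratio of a pair of probes within a sample does not depend on how the samples were scaled. Its size also depends on how well each probe works, so only its change between samples is read. The log2 ratio of miR-34a to miR-34c, of counts plus 1, was -1.84 and -2.61 for WT and -3.32 and -3.75 for TKO. Both TKO ratios lay below both WT ratios, by a mean difference of -1.31 that ranged from -1.70 to -0.92 with 1 sample left out. Since miR-34a was lower and miR-34c higher in both TKO samples, this ratio had to separate. It restates the levels given above and adds no separate evidence. The lowest ratio, in TKO replicate 2, rests on a miR-34a level below the background of that sample. The ratios are a description with no test, since the smallest two-sided p of an exact permutation test here is 0.333. Mir34b and Mir34c lie 451 bases apart, and the log2 ratio of miR-34c to miR-34b-5p overlapped between the genotypes, with 3.13 and 4.82 for WT and 4.69 and 4.54 for TKO. WT replicate 1 had the lowest of the 4 values, and without it the difference of 0.64 became -0.20.

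For the arms of miR-34b, cut from the hairpin printed above, the log2 ratio of miR-34b-3p to miR-34b-5p was -0.79 and -0.71 for WT and 0.13 and -0.15 for TKO. These values come from between 13 and 44 recovered counts and from probes below background in all 4 samples, so they say nothing of the balance of the arms. In the miR-449 cluster, the log2 ratio of miR-449c to miR-449a was -0.79 and -0.74 for WT and -0.13 and 0.37 for TKO, from 18 recovered counts or fewer, and that of miR-449b to miR-449a overlapped between the genotypes.

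**Figure D4:**
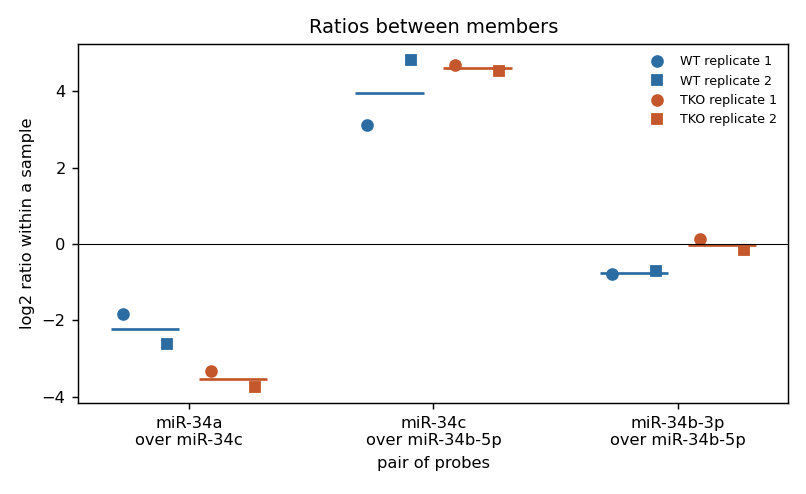
Log2 ratio of the levels of a pair of members within each sample, with points for the 2 WT and 2 TKO samples and horizontal lines for the group means. The ratio of miR-34a to miR-34c is lower in both TKO samples than in both WT samples, that of miR-34c to miR-34b-5p overlaps, and both miR-34b probes are below background.

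The study sorted mouse precursors by the methylation of their borders, with methylated precursors in its bilateral, upstream and downstream groups and unmethylated ones in its depleted and flat groups. It places mir-34a in the bilateral, mir-449a in the upstream and mir-34c in the downstream group, and mir-34b, mir-449b and mir-449c in the flat group. Of the 3 methylated members, miR-34a (-0.69) and miR-449a (-0.87) had lower and miR-34c (0.62) higher mean log2 values in TKO cells, and none was called. The study used miR-449a as a representative methylated miRNA and describes those it chose as differing between WT and TKO cells, so its direction here may not be independent evidence. The study also measured its chosen miRNAs by quantitative PCR of mature and primary forms. By quantitative PCR it reports most methylated ones as lower in TKO cells. The PCR measurements are not part of the data read here. Of the 4 probes in the flat group, 2 had lower and 2 higher mean log2 values, from -0.25 to 0.72, and all were below background. The genomic neighbours Mir34b and Mir34c were thus placed in different groups.

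Other miRNAs that are linked to p53 were read from the same fit. The list holds miR-192, miR-194 and miR-107, known from p53-induced transcripts, miR-143, miR-145 and miR-16, whose processing p53 is known to promote, miR-15a, the cluster partner of miR-16, and the epithelial miR-200c and miR-141. Of the 11 miRNAs listed, 9 were measured and 8 were above background. None passed the threshold, and all 9 had a lower mean log2 value in TKO cells, with a median difference of -0.40 beside -0.12 for all mouse probes. With sum scaling, 7 of the 9 were lower, at a median of -0.26. Of all mouse probes, 61.7% had a lower mean log2 value with the deposited scaling and 48.9% with sum scaling. Among only the probes above background, 71.8% were lower, with a median of -0.20. The 8 listed miRNAs among them were all lower, with a median of -0.40. Several of the listed miRNAs, among them miR-15a and miR-16, share a cluster with another on the list. The 9 are thus not independent, and their shared direction is not read as 9 separate observations.

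The largest differences in the list were those of miR-107 and miR-194. miR-107, encoded within a Pank gene of coenzyme A synthesis, gave 107, 109.8, 71.2 and 49.3 normalized counts in the same order of samples, a log2 difference of -0.86 (adjusted p = 0.114 from limma). It was also among the study's representative methylated miRNAs. miR-194 gave 112, 91.3, 74.1 and 66.5 normalized counts, a log2 difference of -0.52 (adjusted p = 0.191 from limma). In both the groups did not overlap, with the TKO values lower, as for miR-34a and for 36% of all mouse probes. Both were named for having the largest differences in the list, so their separated groups add little. miR-16, a miRNA that restrains the cell cycle, gave 7784, 7005, 5382 and 5843 normalized counts (-0.40, adjusted p = 0.225 from limma). The calls in this list depended on the fit. voom on the recovered counts called miR-107, miR-141 and miR-16 lower, with adjusted p values of 0.0480, 0.0351 and 0.0283. It called no member of the miR-34 and miR-449 family, and 55 lower and 30 higher over all 566 mouse probes. More of the list than of the family was above background, 8 of 9 against 2 of 7, so these calls are not read as a contrast between them.

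**Figure D5:**
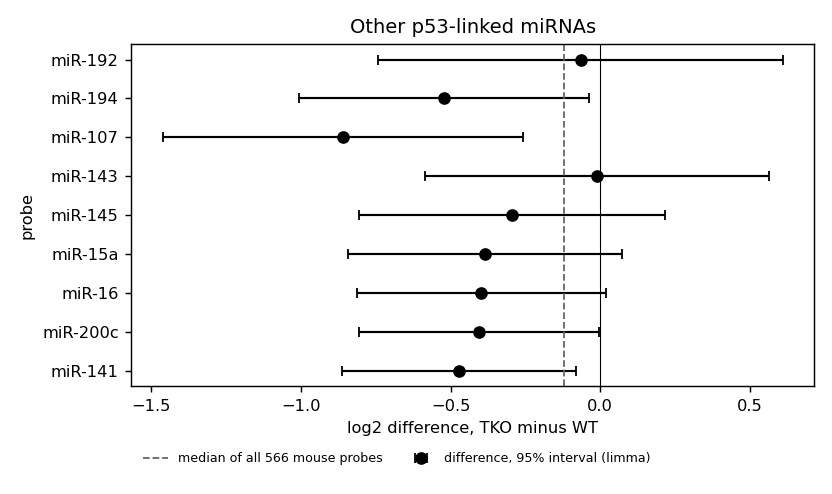
Log2 difference of TKO minus WT cells for the 9 measured miRNAs of the p53-linked list (points) with 95% intervals from limma (bars), beside the median of all mouse probes (-0.12, dashed line). All 9 points are below 0, from -0.86 for miR-107 to -0.011 for miR-143, and none passed the adjusted threshold.

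The miRNAs whose pattern was most like that of the 2 members above background were found by the root mean square distance of their log2 values, each centred on its own mean, over the 4 samples and the 237 other probes above background. Nearest to miR-34a were miR-324-5p (distance 0.097), miR-669f (0.11) and miR-182 (0.11), against a median distance of 0.37. Normalized counts of miR-324-5p were 127, 114, 81.0 and 64.3 in the same order of samples. Nearest to miR-34c were miR-379 (0.18), miR-365 (0.18) and miR-411 (0.22), against a median of 0.53. miR-379 and miR-411 come from the imprinted Dlk1-Dio3 region. Other miRNAs of that region had log2 differences of both signs, such as miR-382 (0.49) and miR-410 (-0.28). The share of the region among the probes compared was not counted. Normalized counts of miR-379 were 93.1, 123, 133 and 135, with WT replicate 1 lowest as for miR-34c. None of these 6 was called, beside 8.48% of all mouse probes. They were picked for values close to those of 2 members that were not called, so this adds no evidence. Their distances lie below the median because the nearest probes were picked.

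Markers of other cell types were read beside the family. Over all mouse probes, 4.24% were called higher and 4.24% lower. The list of testis germline miRNAs had 11 of 13 probes called higher. Its summed levels were 468 to 548 normalized counts in WT and 3257 to 3376 in TKO cells. The primed pluripotency list of miR-302 and miR-367 had 4 of 5 called higher, with sums of 349 to 373 in WT and 1649 to 2021 in TKO cells. In the neural list, 1 of 3 was called lower (miR-124), with sums of 599 to 699 in WT and 270.1 to 277 in TKO cells. In the muscle (4 probes), liver (1 probe) and blood (5 probes) lists none was called, and no muscle or liver probe was above background. The blood sums were 906 to 967 in WT and 1295 to 1446 in TKO cells, mostly from miR-142-3p. The part of these cell states in the levels of miR-34a and miR-34c was not tested.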

How the data were processed

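The authors measured miRNAs with the NanoString nCounter assay in 2 WT and 2 TKO samples, normalized them in nSolver and deposited the result as log2 values. The version, the treatment of background and the probes that set the scaling are not given in the sources used here. The log2 values were turned back to normalized counts. In each sample 100% of these were whole multiples of 1 factor within a tolerance of 0.05, which gave the recovered counts and their exact Poisson intervals (95%, counting error only).

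A pseudocount of 1 was added, log2 taken, and TKO compared with WT in limma (lmFit, eBayes) over all 566 mouse probes with Benjamini-Hochberg adjustment. Alternatives covered the pseudocount, scaling, filter, single samples, a replicate block, a trend and voom. Subtraction of the viral mean and crossed replicate numbers were added after seeing the data. The members, lists and rules were chosen with earlier results of these data known. The miRNAs named are all members, the 3 probes most like each member above background, and from each list the called miRNAs and, where fewer than 2 were called, those with the largest differences up to 2, though not every one is printed. miR-16, miR-141, miR-142-3p and the lowest value of the p53-linked list were named after their values were seen. The fit was tested on simulated data. Sequences, positions and promoter windows came from RefSeq tables of GRCm38.p6, and groups of precursors from the study's lists. Tests ran in limma 3.58.1 under R 4.3.3, and other steps in Python 3.11.15 with pandas 2.3.3, scipy 1.17.1 and matplotlib 3.10.9.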

Additional observations from a re-analysis of the deposited data

How the results depend on the processing

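No member was called under any alternative that tested it, 15 for miR-34a and miR-34c and 13 for each of the 5 members below background, which the alternatives limited to probes above background leave out. In these, miR-34a, miR-34c, miR-449a and miR-34b-3p kept their sign. The difference of miR-34a ranged from -1.13 (viral mean subtracted, probes above background) to -0.39, and that of miR-34c from 0.33 to 0.92. miR-34b-5p turned to 0.11 with sum scaling, 0.10 with median scaling and 0.083 with viral probe scaling, and ranged from -0.57 to 0.53 with 1 sample left out. With 1 sample left out miR-449b ranged from -0.75 to 0.25 and miR-449c from -0.20 to 0.22. With a pseudocount of 10, the log2 ratio of miR-34b-3p to miR-34b-5p differed by 0.54 between TKO and WT cells and that of miR-449c to miR-449a by 0.51. As recovered counts, the mean level of miR-34b-5p in TKO cells was 30.5 and that of miR-449b in WT cells 10.5. The highest viral probe or the mean plus 3 SD as background left 2 members above it.

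Over all mouse probes the number called lower was 48 with only the 238 probes above background, 54 with a trend and 55 with voom. With 1 sample left out it ranged from 0 to 1, and the number called higher from 0 to 13. limma called 0 without TKO replicate 1 (unadjusted p under 0.05 in 75 lower and 39 higher probes) and 0 without TKO replicate 2 (64 lower and 37 higher). The replicate number is not said to pair the samples, and same-numbered samples did not deviate together (correlation -0.094 over mouse probes, -0.24 over those above background). With the replicate block 10 probes were called lower and 20 higher, and no member. With the numbers crossed, chosen after seeing the data, they were 37 and 27. The cause of these shifts was not tested. Counts under 50 per sample limit the precision of 5 members.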
